A study of Mus musculus with 15 samples.

Results

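The genes described here are 33 genes of glycolysis and of the cellular response to low oxygen, chosen by name: 21 glycolytic enzymes and transporters and 12 hypoxia response genes. They were matched by symbol among the 55367 gene symbols of the count table, in which all 33 were listed and had at least 1 count. The libraries are bulk RNA libraries of cells sorted from the medial cortex of C57BL/6 mouse embryos at stage E11.5. They were prepared by a modified smart-seq2 protocol, in which full-length cDNA is amplified from little input. The 6 AnnexinV-positive libraries came from cells that bound annexin V, a protein that sticks to phosphatidylserine exposed on the cell surface, and excluded propidium iodide (PI), a dye that enters cells with a broken membrane. The 6 double-negative libraries came from cells with neither stain. The title names the search for superior and inferior neural progenitor cells as the aim. No mutation, transgene or drug treatment is named for either sort, so the labels give the stain as the sole difference between them. The libraries of each sort are numbered 1 to 6, and the comparison is given over all 12 and again within numbers 1 to 3 and 4 to 6. Nothing in the labels says whether the libraries came from separate embryos, so p-values measure the spread between libraries, which may be technical.

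Glycolysis splits glucose into pyruvate in the cytosol and yields ATP without oxygen. Lactate dehydrogenase turns pyruvate into lactate, which restores the NAD+ that the pathway uses, and lactate leaves the cell through monocarboxylate transporters. Dividing neural progenitors of the early cortex are known for high glycolysis, and neurons made from them rely more on mitochondrial respiration. When oxygen is low, the transcription factor subunit encoded by Hif1a escapes hydroxylation by the enzymes of the Egln family, pairs with its partner and binds DNA at short sites with the core ACGTG or GCGTG. Its known targets include most glycolytic enzymes, the pyruvate dehydrogenase kinase Pdk1, the growth factor gene Vegfa and the mitophagy gene Bnip3.

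The promoters of the members on which the results below turn were read for those core letters. The windows shown are the 250 bases before the RefSeq transcription start on GRCm38.p6, 5′ to 3′ on the gene's strand, and capitals mark ACGTG or GCGTG on either strand (CACGT and CACGC when read on the other strand). The first pair is Hk2, at chr6:82774455-82774704 (minus strand), and its paralogue Hk1, whose first window is at chr10:62379909-62380158 (minus strand), since Hk2 had the largest pooled ratio among members with counts in both sorts. The next pair is Ldha, with windows at chr7:46845554-46845803 (plus strand) and chr7:46846832-46847081 (plus strand), and its paralogue Ldhb, at chr6:142507958-142508207 (minus strand). The last are 3 enzymes of lower glycolysis with an unadjusted p under 0.05: Gapdh, at chr6:125165774-125166023 (minus strand), Pgk1, at chrX:106186850-106187099 (plus strand), and Pgam1, at chr19:41911621-41911870 (plus strand).
Hk2: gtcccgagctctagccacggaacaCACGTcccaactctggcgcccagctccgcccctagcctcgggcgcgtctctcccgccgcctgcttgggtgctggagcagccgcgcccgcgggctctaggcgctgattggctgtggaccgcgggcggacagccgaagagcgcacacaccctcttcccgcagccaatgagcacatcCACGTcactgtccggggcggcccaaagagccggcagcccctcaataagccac
Hk1: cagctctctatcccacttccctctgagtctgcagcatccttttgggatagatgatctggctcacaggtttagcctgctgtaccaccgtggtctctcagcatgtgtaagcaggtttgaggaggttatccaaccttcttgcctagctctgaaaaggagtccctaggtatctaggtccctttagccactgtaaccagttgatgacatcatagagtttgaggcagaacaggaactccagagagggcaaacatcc
Ldha, first window: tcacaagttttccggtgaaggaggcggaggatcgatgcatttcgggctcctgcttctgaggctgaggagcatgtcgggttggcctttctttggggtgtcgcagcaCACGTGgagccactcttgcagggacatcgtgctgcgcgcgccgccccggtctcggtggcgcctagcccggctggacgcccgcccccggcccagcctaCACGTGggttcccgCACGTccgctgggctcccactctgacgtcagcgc
Ldha, second window: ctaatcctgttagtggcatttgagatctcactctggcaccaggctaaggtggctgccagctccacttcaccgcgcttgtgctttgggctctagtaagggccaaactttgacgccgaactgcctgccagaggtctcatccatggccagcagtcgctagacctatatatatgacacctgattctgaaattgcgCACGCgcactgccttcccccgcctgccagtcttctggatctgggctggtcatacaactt
Ldhb: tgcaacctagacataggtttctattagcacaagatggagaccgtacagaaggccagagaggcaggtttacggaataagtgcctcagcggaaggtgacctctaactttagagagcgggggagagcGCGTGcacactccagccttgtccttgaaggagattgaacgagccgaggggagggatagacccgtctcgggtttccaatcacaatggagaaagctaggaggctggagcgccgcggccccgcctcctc
Gapdh: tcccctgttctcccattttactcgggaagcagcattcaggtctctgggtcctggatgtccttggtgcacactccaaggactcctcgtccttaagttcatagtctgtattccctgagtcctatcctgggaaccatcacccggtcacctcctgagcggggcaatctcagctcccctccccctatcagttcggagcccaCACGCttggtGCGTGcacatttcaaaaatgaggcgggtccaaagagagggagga
Pgk1: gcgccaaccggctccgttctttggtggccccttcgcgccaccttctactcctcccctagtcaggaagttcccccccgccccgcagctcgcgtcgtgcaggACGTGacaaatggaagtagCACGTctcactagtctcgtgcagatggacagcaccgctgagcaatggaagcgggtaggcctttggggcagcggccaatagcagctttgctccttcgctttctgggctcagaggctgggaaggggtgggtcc
Pgam1: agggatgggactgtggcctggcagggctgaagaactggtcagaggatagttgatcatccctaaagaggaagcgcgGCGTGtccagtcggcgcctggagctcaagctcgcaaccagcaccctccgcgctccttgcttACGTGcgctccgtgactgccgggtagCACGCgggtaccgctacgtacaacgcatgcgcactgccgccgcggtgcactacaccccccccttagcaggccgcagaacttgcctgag
Counting both strands, the Hk2 window held 2 matches to ACGTG, and the first Hk1 window held neither core. A second Hk1 window, at chr10:62340422-62340671 (minus strand), held 3 matches to GCGTG and none to ACGTG and is not printed, since 186 of its bases are annotated as exonic, so the pair is not separated by the presence of a core. The first Ldha window held 5 matches to ACGTG, since the palindrome CACGTG counts once on each strand. The second Ldha window and the Ldhb window each held 1 match to GCGTG and none to ACGTG. The Pgk1 window held 2 matches to ACGTG, the Gapdh window 2 to GCGTG, and the Pgam1 window 1 to ACGTG and 2 to GCGTG. Tpi1, of upper glycolysis, also had an unadjusted p under 0.05 by edgeR. Its window, at chr6:124814159-124814408 (minus strand), held neither core and is not printed.

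Such matches are frequent in promoters. Over all 32851 windows of the RefSeq table, 16.6% held ACGTG, 28.2% held GCGTG and 38.6% held at least one of them. Of the members, 32 had a window and several had more than one. ACGTG stood in 38.7% of the 31 windows of glycolytic members and in 73.3% of the 15 windows of hypoxia members, and at least one core stood in 77.4% and 86.7% of them. The windows of the members were also richer in G and C, at 61.4% against 53.2% over all windows. A match describes the letters in the window and does not show that a factor binds there.

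The libraries set limits on what could be seen. Total counts were 190698 to 444420 in AnnexinV-positive libraries and 88195 to 329818 in double-negative libraries, and 21 to 28 of the 33 members had a count in AnnexinV-positive libraries, against 14 to 26 in double-negative libraries. Levels are given as counts per 1000000 counts of the genes tested (CPM), scaled by the trimmed mean of M-values (TMM), and 1 count was worth 2.41 to 5.74 CPM in AnnexinV-positive libraries and 3.60 to 15.4 CPM in double-negative libraries. Double-negative libraries 1, 2 and 3 stood apart with 11.998%, 30.8% and 12.3% of their counts in haemoglobin genes, against at most 0.00964% in every other library, and double-negative libraries 3 and 5 had the fewest detected genes, 6571 and 6759. Detected genes did not overlap between the sorts, at 9145 to 10065 in AnnexinV-positive libraries and 6571 to 8887 in double-negative libraries. The rRNA gene in the table took 21.5% to 41.3% of the counts in AnnexinV-positive libraries and 22.3% to 43.6% in double-negative libraries. An alternative fit given at the end left out the rRNA counts, and beyond that the part of either in the levels below was not tested. Haemoglobin genes did not pass the filter and so do not enter the CPM totals. All 10 cortical progenitor markers had counts, among them Emx2, a transcription factor of the dorsal and medial cortex, with a mean of 109.8 CPM (SD 31.5, n = 6) in AnnexinV-positive libraries and 75.0 CPM (SD 69.4, n = 6) in double-negative ones. In bulk libraries, fewer cells of a type and less RNA per cell cannot be told apart.

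Of the 33 members, 15 passed the filter on low counts, 12 glycolytic and 3 of the hypoxia response, and the other 18 did not. In the edgeR quasi-likelihood fit, 0 of the 15 were called at an adjusted p (Benjamini-Hochberg, 3800 genes) under 0.05, a threshold that 1.87% of all genes tested passed in either direction and 0.395% passed as higher. At an unadjusted p under 0.05 in the same fit, 4 of 12 glycolytic members (Tpi1, Gapdh, Pgk1 and Pgam1) were higher in AnnexinV-positive libraries. Of the hypoxia members 1 of 3 (Egln1) was higher, and no member of either list was lower. Over all genes tested, 7.97% were higher and 15.7% differed in either direction. Egln1 passed the filter mainly through the sort in which it was higher, so the filter favoured its place in this count. None of the 15 was without overlap between the sorts, where 1.34% of all genes tested lay higher without overlap and 2.58% lay so in either direction. The log2 fold change, AnnexinV-positive over double-negative, was positive for 9 of 12 glycolytic members with a median of 0.70, against 53.3% of all genes tested and their median of 0.06. The other tests run on the counts each called 1 glycolytic member, Pgam1, and 0 hypoxia members: DESeq2 with an adjusted p of 0.0267, where 4.97% of all genes tested were called, and limma-voom with an adjusted p of 0.0342, where 2.61% were. The members were chosen with results of these libraries in view, so these counts and medians are a description of the set.

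**Figure D1:**
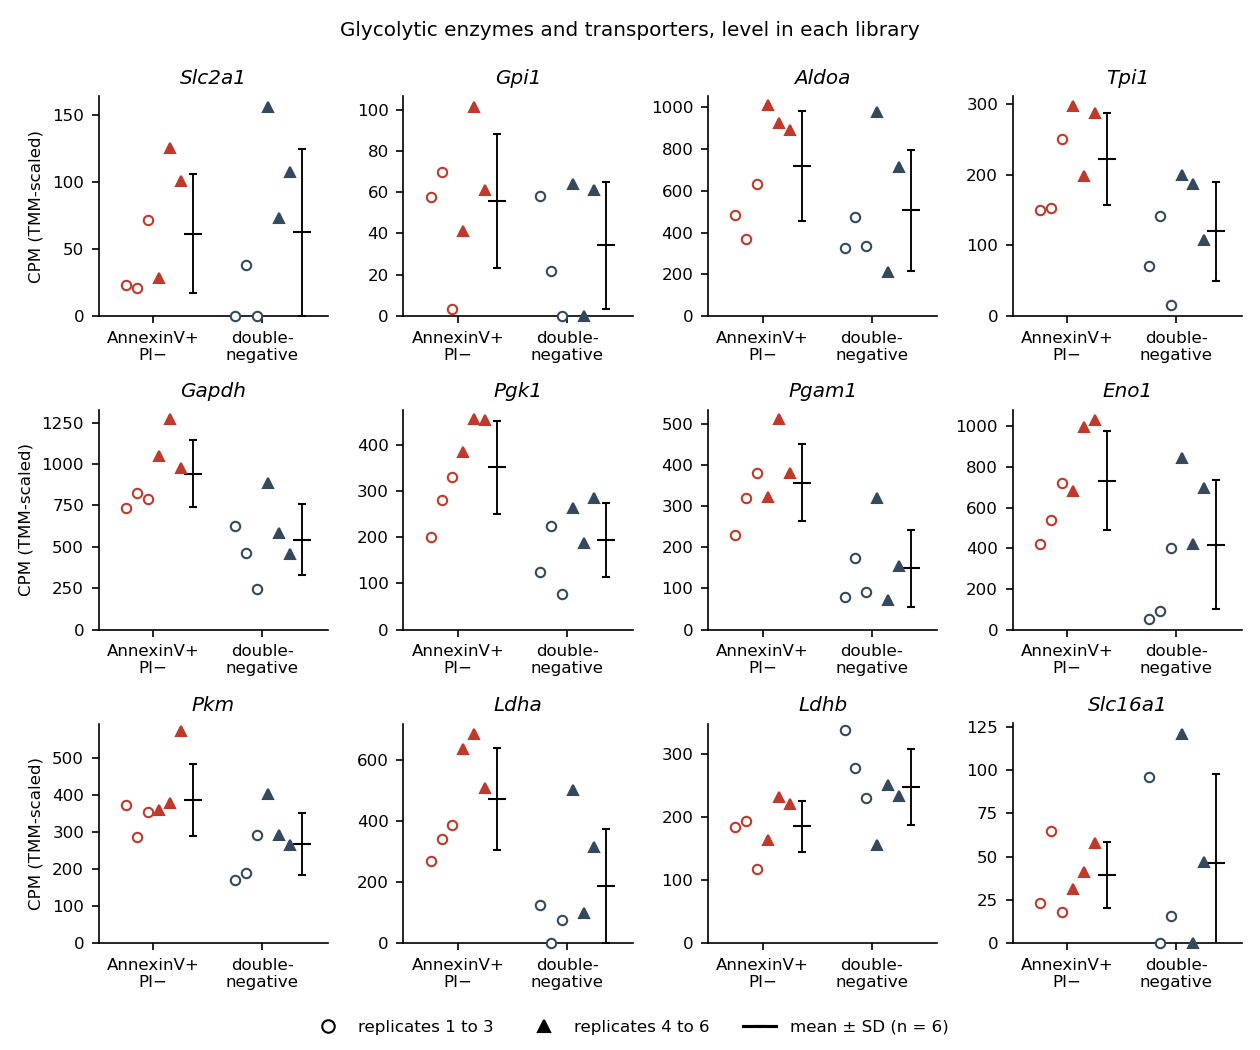
Level in each library (CPM, TMM-scaled, vertical axis from 0) of the 12 glycolytic members that passed the filter, AnnexinV-positive libraries on the left in red and double-negative libraries on the right in grey, with open circles for replicates 1 to 3, filled triangles for replicates 4 to 6 and a bar for the mean and SD of 6 libraries, with bars ending at 0 where they would pass it. For Pgam1, 5 of 6 AnnexinV-positive libraries lie above the highest double-negative library, at 319 CPM, and for Ldhb all AnnexinV-positive libraries lie below the double-negative median of 242 CPM.

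Glucose uptake was read from Slc2a1, the main glucose transporter of brain and endothelium. Slc2a1 ran from 20.7 to 125 CPM in AnnexinV-positive libraries, with a median of 50.0, and from 0 to 156 CPM in double-negative libraries, with a median of 55.5. The ranges covered each other, with double-negative libraries 1 and 3 at 0 counts and library 4 the highest of all. Its log2 fold change was -0.04 (SE 0.77, adjusted p = 0.989) with an approximate 95% interval of -1.54 to 1.46, so a difference of either sign was not detectable at this depth. Slc2a3, the transporter typical of neurons, had 5 counts in 1 AnnexinV-positive library and 12 in 1 double-negative library.

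The widest contrast of the whole set lay in hexokinase, the enzyme that traps glucose as glucose 6-phosphate. Hk2, the isoform induced in growing and hypoxic cells (gene at chr6:82725025-82774454, GRCm38, minus strand), had 1, 5, 12, 20, 22 and 24 counts in AnnexinV-positive libraries 1 to 6, against 0, 0, 0, 1, 0 and 0 counts in double-negative libraries 1 to 6. In CPM this was 5.74, 12.9, 43.0, 63.1, 53.0 and 73.3 in AnnexinV-positive libraries and 7.10 in the one double-negative library with a count. All 6 AnnexinV-positive libraries thus had Hk2 and 1 of 6 double-negative libraries did, and only AnnexinV-positive library 1 lay at or under the level of that library.

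Hk2 was too low for the filter. Pooled over the sorts, 84 counts against 1 gave a ratio of 45.6 after scaling, with an interval for counting error alone of 7.96 to 1822. In the fit without a filter, over 17283 genes of which 1.37% were called in either direction and 0.584% as higher, its log2 fold change was 4.88 (SE 1.498, adjusted p = 0.0665 by edgeR), a size that depends on the prior count because most double-negative libraries were at 0. DESeq2 on the same unfiltered counts gave 4.64 with an adjusted p of 0.0148, and leaving out double-negative library 4, which held the single count, gave an adjusted p of 0.0225 in edgeR, where leaving out any other single library gave 0.0607 to 0.175. Both of these alternatives were chosen after the Hk2 counts were seen.

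The depth bears on the first 3 replicates. A count of 0 allows up to 12.5, 16.3 and 46.1 CPM in double-negative libraries 1, 2 and 3, and AnnexinV-positive libraries 1 and 2, at 5.74 and 12.9 CPM, lay at or under the highest of these limits, as did library 3 at 43.0 CPM. In replicates 4 to 6 the limits for double-negative libraries 5 and 6 were 24.3 and 10.8 CPM and library 4 stood at 7.10 CPM, all under the 3 AnnexinV-positive values. Hk1, the isoform of most brain cells, had 14 counts in 3 AnnexinV-positive libraries and 4 counts in 2 double-negative libraries, a ratio of 1.90 with a counting interval of 0.597 to 7.93, so Hk2 gave 85.7% of the hexokinase counts of the pair in the AnnexinV-positive sort and 20.0% of only 5 counts in the double-negative sort.

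**Figure D2:**
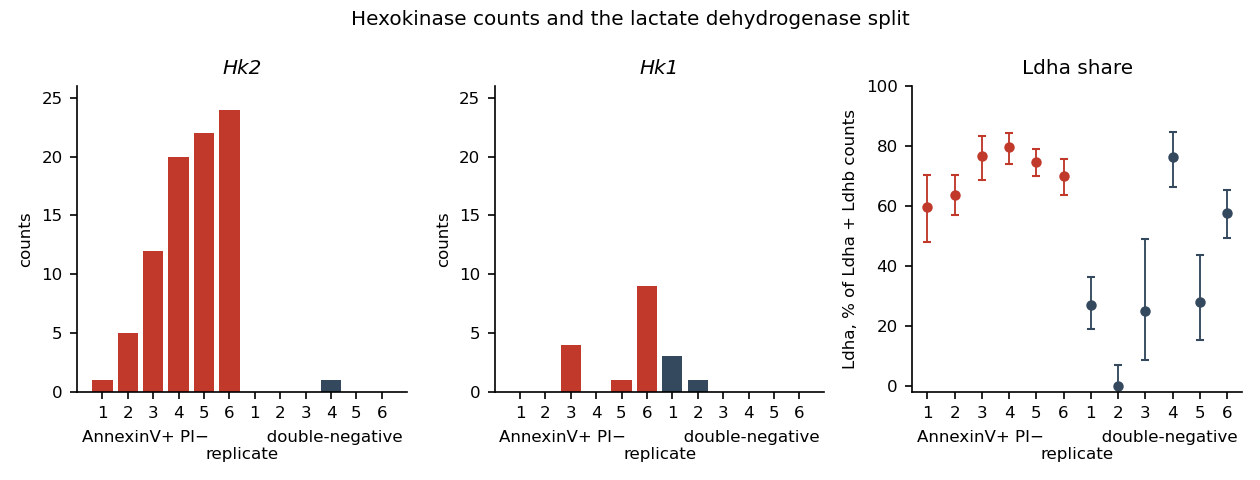
Counts of Hk2 and Hk1 (left and middle, counts per library) and Ldha as a percent of Ldha plus Ldhb counts (right, with exact Clopper-Pearson 95% binomial intervals for counting error), AnnexinV-positive libraries 1 to 6 in red to the left of double-negative libraries 1 to 6 in grey. Hk2 reaches 24 counts in AnnexinV-positive library 6 and has a single count in the double-negative libraries, and the Ldha share is 59.5% to 79.5% in AnnexinV-positive libraries and 0% to 76.3% in double-negative libraries.

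Upper glycolysis was thinly covered. Gpi1, which turns glucose 6-phosphate into fructose 6-phosphate, ran from 3.58 to 101 CPM in AnnexinV-positive libraries (median 59.2) and from 0 to 63.9 CPM in double-negative libraries (median 40.0), and its fold change of 0.61 on the log2 scale (SE 0.78, adjusted p = 0.756) was within the spread. Exons of Gpi1 share 741 bases with Gm26762 on the other strand, whose reads cannot be told apart here. Phosphofructokinase, the committed step, has 3 genes, and none passed the filter. Pfkl, the liver-type subunit, had 1, 4, 5, 24, 25 and 14 counts in AnnexinV-positive libraries and 5, 0, 0, 16, 0 and 7 counts in double-negative libraries. Pfkm, the muscle-type subunit, had 0, 0, 11, 10, 7 and 1 counts in AnnexinV-positive libraries and 7, 10, 3, 1, 12 and 4 counts in double-negative libraries. Pfkp, the platelet-type subunit, had 4 counts, all in AnnexinV-positive library 6, against 22 in double-negative libraries, of which library 2 held 15.

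The pooled ratios of the 3 subunits lay on both sides of 1. The pooled ratio, AnnexinV-positive over double-negative, was 1.42 for Pfkl with a counting interval of 0.904 to 2.27, but 0.426 for Pfkm with an interval of 0.252 to 0.711 and 0.0987 for Pfkp with an interval of 0.0247 to 0.291. These intervals leave out the spread between libraries, and in the unfiltered edgeR fit the adjusted p was 0.812 for Pfkl, 0.596 for Pfkm and 0.282 for Pfkp. Reads of Pfkp share 748 exonic bases with Pitrm1 on the other strand, and without a stated strand setting reads of both genes there cannot be told apart.

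The aldolase and triose steps were well covered. Aldoa, which splits fructose 1,6-bisphosphate, ran from 367 to 1012 CPM in AnnexinV-positive libraries (median 763) and from 210.5 to 980 CPM in double-negative libraries (median 406). Double-negative library 4 was above 5 of the 6 AnnexinV-positive libraries, and the log2 fold change was 0.50 (SE 0.32, adjusted p = 0.485). Aldoc, the brain-type aldolase, had 15 counts in AnnexinV-positive libraries, 12 of them in library 2, and 2 counts in double-negative libraries. Tpi1, which interconverts the triose phosphates, ran from 149 to 296 CPM in AnnexinV-positive libraries (median 224) and from 15.4 to 199 CPM in double-negative libraries (median 125). All 6 AnnexinV-positive libraries were above the double-negative median and 3 were above the highest double-negative library, with a log2 fold change of 0.86 (SE 0.40, unadjusted p = 0.043, adjusted p = 0.296).

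Gapdh, which oxidises glyceraldehyde 3-phosphate and is often used as a loading reference, was the highest member per length, at 663 CPM per kb in AnnexinV-positive libraries and 383 CPM per kb in double-negative libraries. Its level was 735, 824, 792, 1047, 1275 and 977 CPM in AnnexinV-positive libraries 1 to 6, against 625, 463, 246, 887, 583 and 457 CPM in double-negative libraries 1 to 6. All 6 AnnexinV-positive libraries were above the double-negative median, and double-negative library 4 alone reached into their range. Its log2 fold change was 0.78 (SE 0.26, unadjusted p = 0.005, adjusted p = 0.113). The difference was nearly the same in replicates 1 to 3, at 0.78, as in replicates 4 to 6, at 0.75. Without double-negative library 4 it was 0.96 with an edgeR adjusted p of 0.0391, and over all 26 alternatives the adjusted p ran from 0.0391 to 0.474.

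Pgk1, the first enzyme of glycolysis to make ATP, ran from 201 to 456 CPM in AnnexinV-positive libraries (median 357) and from 76.8 to 284 CPM in double-negative libraries (median 205). The 4 highest of the AnnexinV-positive libraries lay above every double-negative library, and the log2 fold change was 0.83 (SE 0.32, unadjusted p = 0.016, adjusted p = 0.191).

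Pgam1, which moves the phosphate of 3-phosphoglycerate, came closest to the threshold among the tested members. It was at 230, 320, 380, 322, 511 and 382 CPM in AnnexinV-positive libraries 1 to 6, against 79.2, 174, 92.1, 319, 72.9 and 155 CPM in double-negative libraries 1 to 6. AnnexinV-positive libraries 2 to 6 were above every double-negative library, and double-negative library 4 came close to the lowest of these. Its mean was 357 CPM (SD 93.5, n = 6) in AnnexinV-positive libraries and 149 CPM (SD 93.4, n = 6) in double-negative ones, a fitted 2.38-fold difference (log2 1.25, SE 0.35, unadjusted p = 0.002, adjusted p = 0.0648). It passed the threshold in 8 of the 26 alternative fits, with adjusted p-values from 0.00988 without double-negative library 4 to 0.339 without double-negative libraries 1 to 3 over all of them, and its log2 fold change stayed between 0.95 and 1.63. The gene lies at chr19:41911923-41918660 (GRCm38, plus strand), and its 2 listed near-identical copies held 1.36% of the summed counts.

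Eno1, the enolase of most tissues, was at 419, 537, 724, 684, 998 and 1032 CPM in AnnexinV-positive libraries 1 to 6, against 54.2, 92.5, 399, 845, 421 and 698 CPM in double-negative libraries 1 to 6. Double-negative libraries 1 and 2 were far below all others, and library 4 was above 4 of the AnnexinV-positive libraries. Its log2 fold change was 0.81 in the full comparison (SE 0.51, adjusted p = 0.476), 1.83 within replicates 1 to 3 and 0.42 within replicates 4 to 6. The test of that change between the sets gave -1.37 (SE 0.67, unadjusted p = 0.053, adjusted p = 0.780), so it did not pass. Eno1b, a near-identical copy with which Eno1 can share reads, held 6.40% of their summed counts. Eno2, the enolase typical of neurons, had 2 counts in AnnexinV-positive library 1 and none elsewhere.

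Pkm, pyruvate kinase, ran from 287 to 574 CPM in AnnexinV-positive libraries (median 366) and from 171 to 405 CPM in double-negative libraries (median 279). All 6 AnnexinV-positive libraries were above the double-negative median, with library 6 well above the rest, and the log2 fold change was 0.54 (SE 0.28, adjusted p = 0.362). The table holds 1 value per gene, so the M1 and M2 splice forms of Pkm were not separated. Exons of Pkm share 767 bases with Gm49759 on the same strand, and reads there are uncertain.

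The 2 lactate dehydrogenase genes had fold changes of opposite sign. Ldha, the subunit of glycolytic tissues, was at 270, 341, 387, 637, 687 and 510 CPM in AnnexinV-positive libraries 1 to 6, against 125, 0, 76.8, 504, 97.1 and 316 CPM in double-negative libraries 1 to 6. Its log2 fold change was 1.31, a fitted 2.49-fold difference (SE 0.63, unadjusted p = 0.056, adjusted p = 0.334). Ldhb, the subunit of respiring tissues, was at 184, 194, 118, 164, 231 and 220 CPM in AnnexinV-positive libraries 1 to 6, against 337, 278, 230, 156, 251 and 234 CPM in double-negative libraries 1 to 6, a log2 fold change of -0.42 (SE 0.31, adjusted p = 0.551). Ldha was higher than the double-negative median in all 6 AnnexinV-positive libraries and Ldhb was lower than it in all 6, but neither passed the test and their ranges overlapped.

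As a share of Ldha plus Ldhb counts, which does not depend on the scaling between libraries, Ldha made up 59.5%, 63.8%, 76.6%, 79.5%, 74.8% and 69.9% in AnnexinV-positive libraries 1 to 6, against 27.0%, 0%, 25%, 76.3%, 27.9% and 57.5% in double-negative libraries 1 to 6. In double-negative library 2 the 0 of 51 counts allows a share of up to 6.98% by the exact 95% binomial interval, and in double-negative library 3 only 20 counts gave an interval of 8.66% to 49.1%. The share was above 57.5% in all AnnexinV-positive libraries, and double-negative libraries 4 and 6 were the 2 that came near or into that range. The pooled share was 72.3% in the AnnexinV-positive sort and 43.7% in the double-negative sort. A named copy of Ldhb held 10.8% of the summed counts of Ldhb and that copy, and the named copies of Ldha held none. The share leaves out the counts of these copies. The share was chosen after its parts were seen and is given without a test.

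Export was read from Slc16a1, a monocarboxylate transporter of most tissues, which ran from 17.9 to 64.6 CPM in AnnexinV-positive libraries (median 36.3) and from 0 to 121 CPM in double-negative libraries (median 31.0), with a log2 fold change of -0.27 (SE 0.82, adjusted p = 0.910). The double-negative libraries were spread on both sides of the AnnexinV-positive ones, with libraries 2 and 5 at 0. Slc16a3, the low-affinity lactate exporter known as a target of hypoxia, had 11 counts in 3 AnnexinV-positive libraries and 0 in double-negative libraries. With the double-negative sum set at its limit of 3 counts the ratio was 1.99. This leaves out the counting error of the 11 counts, so it is not a lower bound. In the unfiltered edgeR fit the adjusted p of Slc16a3 was 0.220.

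**Figure D3:**
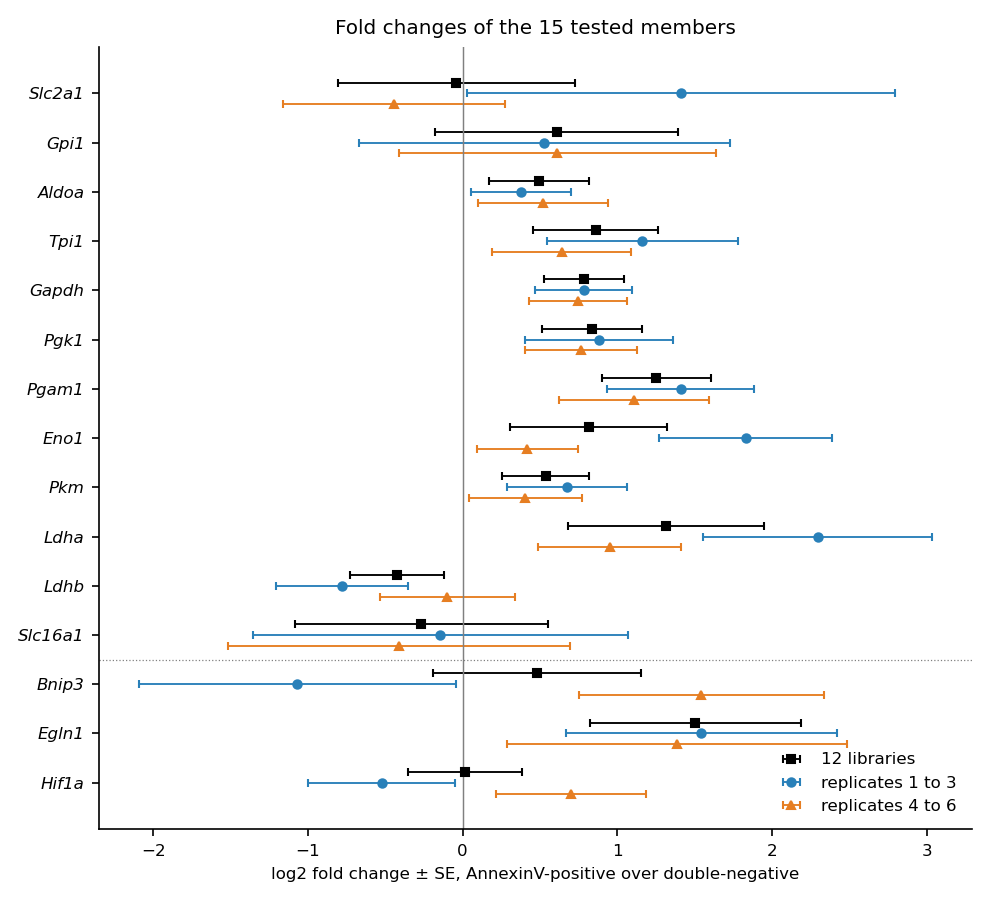
Log2 fold change ± SE (horizontal axis, AnnexinV-positive over double-negative) of the 15 tested members in pathway order, glycolytic members above the dotted line and hypoxia members below it, over 12 libraries (black squares), replicates 1 to 3 (blue circles) and replicates 4 to 6 (orange triangles). From Aldoa to Ldha all 3 estimates of each enzyme are above 0, and Bnip3 and Hif1a lie on opposite sides of 0 in the replicate sets.

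The run from aldolase to lactate dehydrogenase A had the same sign in both replicate sets. In replicates 1 to 3 the log2 fold change was positive for 10 of 12 glycolytic members with a median of 0.83, against 51.8% and 0.05 over all genes tested, and in replicates 4 to 6 for 9 of 12 with a median of 0.57, against 51.8% and 0.04. It was positive in both sets for 9 of 12, where 33.8% of all genes tested were. At an unadjusted p under 0.05, 4 were higher in replicates 1 to 3 (Gapdh, Pgam1, Eno1 and Ldha), against 6.11% of all genes, and 2 in replicates 4 to 6 (Gapdh and Pgam1), against 4.95%. None passed the adjusted threshold within a set, which 1.26% of all genes passed in replicates 1 to 3 and 0.553% in replicates 4 to 6, and none differed between the sets by the test of that difference, which 0.0789% of genes passed.

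The summed CPM of the 21 glycolytic members was 3186, 3512, 4180, 5196, 6071 and 5717 in AnnexinV-positive libraries 1 to 6, against 2150, 2237, 1827, 5026, 2493 and 3531 in double-negative libraries 1 to 6. The AnnexinV-positive libraries of replicates 4 to 6 were all above those of replicates 1 to 3. The double-negative libraries were not alike, library 4 lying above AnnexinV-positive libraries 1 to 3 and below AnnexinV-positive libraries 4 to 6, and library 6 within the range of AnnexinV-positive libraries 1 to 3. Gapdh, Eno1 and Aldoa gave most of the sum, at 20.3%, 15.8% and 15.5% in the AnnexinV-positive sort and 18.9%, 14.5% and 17.6% in the double-negative sort.

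Markers of young neurons also differed between the sorts. The summed CPM of 11 neuronal markers ran from 302 to 918 in AnnexinV-positive libraries and from 1760 to 4125 in double-negative libraries without overlap, and 5 of the 8 tested passed the threshold as lower in the AnnexinV-positive sort, where 1.47% of all genes tested did. Double-negative libraries 4 and 6, which had the highest glycolytic sums of their sort, had its lowest neuronal sums, 1760 and 2010 CPM, and its highest sums of 10 cortical progenitor markers, 1860 and 2143 CPM. The progenitor sum was 1628 to 2540 CPM in AnnexinV-positive libraries and 983 to 2143 CPM in double-negative libraries, with 0 of 9 tested called over all libraries and a median log2 fold change of 0.63. By edgeR at an unadjusted p under 0.05, 4 of 9 were higher, where 7.97% of all genes tested were. Within replicates 1 to 3, 2 of 9 were called higher (median 1.57), where 1.26% of genes were called in either direction. Within replicates 4 to 6, 0 were called (median 0.21), where 0.553% of genes were. In AnnexinV-positive libraries the progenitor sums did not follow the glycolytic ones: replicates 4 to 6, with the higher glycolytic sums, had lower progenitor sums, 1628 to 1840 CPM, than replicates 1 to 3, 1992 to 2540 CPM. Their neuronal sums were also lower, at 302 to 542 CPM against 680 to 918 CPM in replicates 1 to 3. Libraries with a lower neuronal sum mostly had a higher glycolytic sum. Single libraries departed from that order, as in these examples. AnnexinV-positive library 5 was above library 6 in both, at 441 against 302 CPM for neurons and 6071 against 5717 CPM for glycolysis. Double-negative library 5 was likewise above library 2, at 4023 against 2438 CPM and 2493 against 2237 CPM. The part of the neuronal and progenitor share in the glycolytic levels was not tested.

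Blood and vessel markers differed between libraries as well. Erythroid markers summed to 153557, 539896 and 166508 CPM in double-negative libraries 1, 2 and 3, against 0 to 93.1 CPM in AnnexinV-positive libraries and 0 to 8.09 CPM in double-negative libraries 4 to 6. Leaving out double-negative libraries 1 to 3 brought the glycolytic median down to 0.31 and left the sign of all 15 tested members as it was, but moved Eno1 to 0.14, Aldoa to 0.15 and Pkm to 0.25, with Pgam1 at 0.95 (edgeR adjusted p = 0.339), Gapdh at 0.54 (edgeR adjusted p = 0.474) and Ldha at 0.60 (edgeR adjusted p = 0.609, within a range of 0.0676 to 0.619 over all alternatives). Endothelial markers were at 0 in all double-negative libraries and reached 437 CPM in AnnexinV-positive library 6, and mesenchymal markers ran from 28.4 to 932 CPM in AnnexinV-positive libraries and from 0 to 99.4 CPM in double-negative libraries, with Dcn at 0 throughout. Macrophage markers reached 959 CPM in AnnexinV-positive library 1 and 150 CPM in double-negative library 1, with C1qa at 0 throughout. Whether these cells carry part of the glycolytic levels was not tested.

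**Figure D4:**
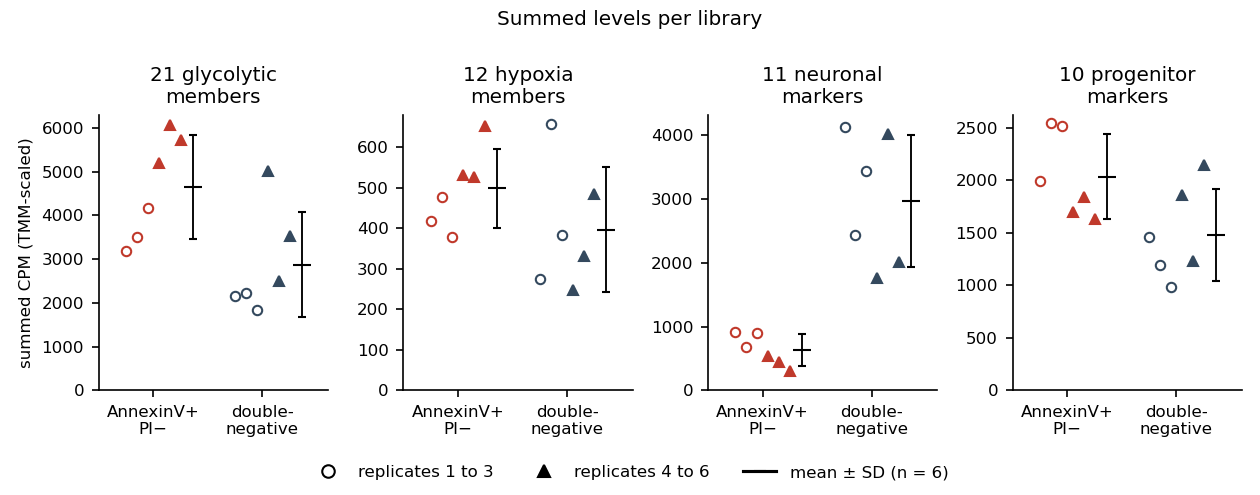
Summed CPM per library (TMM-scaled, each panel with its own axis from 0) of the 21 glycolytic members, the 12 hypoxia members, 11 neuronal markers and 10 cortical progenitor markers, AnnexinV-positive libraries in red to the left of double-negative libraries in grey, with open circles for replicates 1 to 3, triangles for replicates 4 to 6 and the mean and SD of 6 libraries. The neuronal sums do not overlap, at 302 to 918 against 1760 to 4125 CPM, while the glycolytic sums overlap through double-negative libraries 4 and 6, at 5026 and 3531 CPM.

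The 3 tested hypoxia members had positive log2 fold changes over all libraries, with a median of 0.48, and with 1 of 3 positive in replicates 1 to 3 (median -0.52) and 3 of 3 in replicates 4 to 6 (median 1.39). The median over all libraries, set by Bnip3, depended on single libraries, falling to 0.10 without AnnexinV-positive library 5 and 0.23 without AnnexinV-positive library 6 and reaching 0.76 without AnnexinV-positive library 3 and 0.80 without double-negative library 3. Hif1a, the oxygen-regulated subunit itself, ran from 162 to 289 CPM in AnnexinV-positive libraries (median 219) and from 92.3 to 501 CPM in double-negative libraries (median 176). Double-negative library 2 was the highest and library 4 the lowest of all 12, and the means were 223 CPM (SD 63.3, n = 6) in AnnexinV-positive libraries and 222 CPM (SD 146, n = 6) in double-negative ones. The log2 fold change was 0.02 (SE 0.37, adjusted p = 0.992) with an approximate 95% interval of -0.70 to 0.74. Replicates 1 to 3 gave -0.52 and replicates 4 to 6 gave 0.70, a difference that did not pass its test (unadjusted p = 0.077, adjusted p = 0.850). Control of this subunit acts mostly on the protein, which these libraries do not measure.

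Egln1, the main oxygen sensor that marks the Hif1a protein for destruction and itself a target of it, had the largest fold change of the 15 tested members. It was at 115, 43.9, 111, 59.9, 41.0 and 101 CPM in AnnexinV-positive libraries 1 to 6, against 16.7, 54.4, 15.4, 42.6, 0 and 28.8 CPM in double-negative libraries 1 to 6. All 6 AnnexinV-positive libraries were above the double-negative median of 22.7 CPM and 4 of them were above every double-negative library. The double-negative values rested on 29 counts in all, with 1 count in library 3 and 0 in library 5, which allows up to 24.3 CPM. AnnexinV-positive libraries held 17 to 33 counts each, so Egln1 passed the filter mainly through the sort in which it was higher. Egln1 had a log2 fold change of 1.51 (SE 0.68, unadjusted p = 0.037, adjusted p = 0.281), with 1.54 in replicates 1 to 3 and 1.39 in replicates 4 to 6. Egln3, a related hydroxylase strongly induced by hypoxia, had 3 counts in AnnexinV-positive libraries and 0 in double-negative libraries, too few for a fold.

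Bnip3, a mitophagy receptor and target of the hypoxia factor, was at 34.4, 59.4, 3.58, 44.1, 169 and 134 CPM in AnnexinV-positive libraries 1 to 6, against 54.2, 43.5, 123, 35.5, 48.6 and 32.4 CPM in double-negative libraries 1 to 6. AnnexinV-positive libraries 5 and 6 were the highest of all 12 and library 3 the lowest. Over all libraries the log2 fold change was 0.48 (SE 0.67, adjusted p = 0.773). It was -1.07 (SE 1.03) within replicates 1 to 3 and 1.54 (SE 0.79) within replicates 4 to 6, and the test of the difference between the sets gave 2.65 (SE 1.29, unadjusted p = 0.052, adjusted p = 0.780). Double-negative library 3 rested on 8 counts. Exons of Bnip3 share 504 bases with an antisense gene, Gm45507, whose reads cannot be told apart here.

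**Figure D5:**
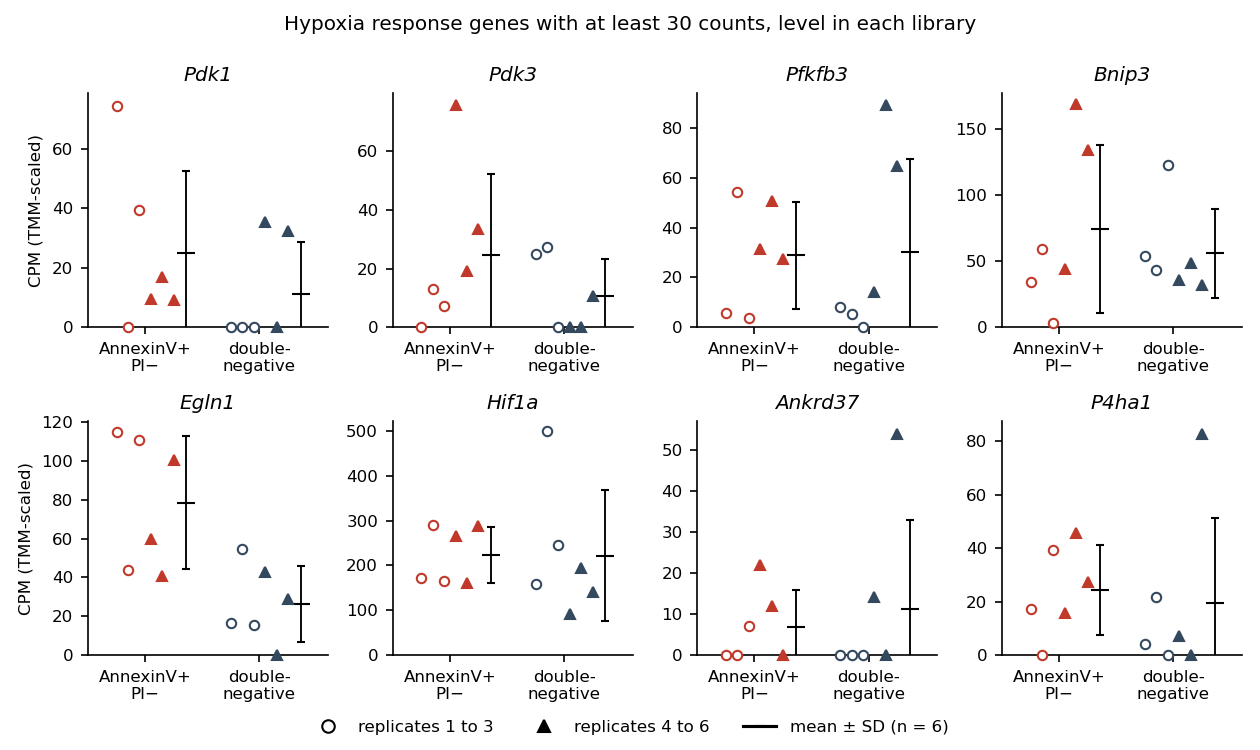
Level in each library (CPM, TMM-scaled, vertical axes from 0) of the 8 hypoxia members with at least 30 counts, AnnexinV-positive libraries in red to the left of double-negative libraries in grey, with open circles for replicates 1 to 3, triangles for replicates 4 to 6 and the mean and SD of 6 libraries, with bars ending at 0 where they would pass it. Egln1 lies at 41.0 to 115 CPM in AnnexinV-positive libraries and 0 to 54.4 CPM in double-negative libraries, and the other panels overlap across most of their range.

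The other 9 hypoxia members were below the filter. Pdk1, a kinase that shuts pyruvate out of the mitochondrion under hypoxia, had 13, 0, 11, 3, 7 and 3 counts in AnnexinV-positive libraries 1 to 6, against 0, 0, 0, 5, 0 and 9 counts in double-negative libraries 1 to 6. Its relative Pdk3 had 0, 5, 2, 24, 8 and 11 counts in AnnexinV-positive libraries and 6, 5, 0, 0, 0 and 3 counts in double-negative libraries, a pooled ratio of 1.94 with a counting interval of 1.06 to 3.80 and an adjusted p of 0.596 in the unfiltered edgeR fit. Both genes were thus present in 5 of 6 AnnexinV-positive libraries, with AnnexinV-positive library 4 holding 24 of the 50 counts of Pdk3.

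Pfkfb3, whose product makes the activator of phosphofructokinase, had 1, 21, 1, 10, 21 and 9 counts in AnnexinV-positive libraries and 2, 1, 0, 2, 11 and 18 counts in double-negative libraries, a pooled ratio of 1.01 with a counting interval of 0.653 to 1.57. P4ha1, a collagen hydroxylase subunit, had 3, 0, 11, 5, 19 and 9 counts in AnnexinV-positive libraries and 1, 4, 0, 1, 0 and 23 counts in double-negative libraries, with 23 of the 29 double-negative counts in library 6. Ankrd37 had 0, 0, 2, 7, 5 and 0 counts in AnnexinV-positive libraries and 0, 0, 0, 2, 0 and 15 counts in double-negative libraries, again mostly in library 6. Each of these genes was thus carried by a few libraries of either sort.

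The classic readouts of hypoxia were rare. Vegfa, the vessel growth factor, had 12 counts in AnnexinV-positive libraries, 7 of them in library 2, and 9 in double-negative libraries, of which library 6 held 6. Adm, the peptide adrenomedullin, had 9 counts in AnnexinV-positive library 6 and none in any other library; the endothelial marker sum was highest in the same library, and its part in this was not tested. Ddit4, an inhibitor of the growth kinase mTORC1 that also responds to other stress, had 3 counts in AnnexinV-positive libraries and 6 in double-negative libraries. The summed CPM of the 12 hypoxia members ran from 380 to 654 in AnnexinV-positive libraries (median 503) and from 248 to 659 in double-negative libraries (median 358). The highest double-negative sum was that of library 2, in which Hif1a gave 501 of the 659 CPM.

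Genes of the neighbouring pathways gave a backdrop. Of 44 further genes of glycolysis, pyruvate use and the pentose phosphate pathway, 11 were tested and 0 were called in either direction by edgeR at an adjusted p of 0.05, none at an unadjusted p under 0.05, with 5 log2 fold changes above 0, 6 below and a median of -0.08. Mpc1, a subunit of the mitochondrial pyruvate carrier, was at 67.2 to 122 CPM in AnnexinV-positive libraries and 80.9 to 261 CPM in double-negative libraries (log2 fold change -0.75, SE 0.39, adjusted p = 0.350), and its partner Mpc2 had -0.70 (SE 0.52, adjusted p = 0.566). Pdhb, a subunit of pyruvate dehydrogenase, had -1.05 (SE 0.56, adjusted p = 0.378), while the other tested genes of that complex, Pdha1 at 0.12 (SE 0.61) and Dld at 0.04 (SE 0.61), had no negative sign. Tkt, the transketolase of the pentose phosphate pathway, had 0.84 (SE 0.55, adjusted p = 0.488). Hk3, Pgam2, Ldhc, Pfkfb1 and Pdk4 had no count in any library. The 33 genes of this list below the filter were not tested, and some had wide contrasts in summed counts of either direction. Pgm1 had 29 in AnnexinV-positive against 0 in double-negative libraries and Gpd2 75 against 8, while Adpgk had 12 against 35 and Gpd1 0 against 9.

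Of 36 further genes of the hypoxia pathway, 7 were tested and 0 were called by edgeR over the 12 libraries, with 1 lower and none higher at an unadjusted p under 0.05 and a median log2 fold change of -0.02. That gene was Bnip3l, a mitophagy receptor known for clearing mitochondria from maturing red cells. Bnip3l was at 115, 212, 100.3, 252, 205 and 266 CPM in AnnexinV-positive libraries 1 to 6, against 596, 555, 399, 213, 121 and 140 CPM in double-negative libraries 1 to 6. Double-negative libraries 1 to 3, the ones rich in haemoglobin counts, were above all other libraries. Its log2 fold change was -0.81 (SE 0.39, adjusted p = 0.305) over all libraries, -1.84 (SE 0.39, adjusted p = 0.0315, past the threshold that 1.26% of genes passed) within replicates 1 to 3 and 0.56 (SE 0.45, adjusted p = 0.700) within replicates 4 to 6. The test of the difference between the sets gave 2.46 (SE 0.59, adjusted p = 0.202) and did not pass, and the part of blood RNA in it was not tested.

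Higd1a, a mitochondrial protein induced by hypoxia, was at 86.1 to 223 CPM in AnnexinV-positive libraries and 16.3 to 114 CPM in double-negative libraries (log2 fold change 0.91, SE 0.53, adjusted p = 0.429). Vhl, which targets the Hif1a protein for destruction, had 0.93 (SE 0.80, adjusted p = 0.626), and Fam162a, a hypoxia-induced mitochondrial protein, had 0.53 (SE 0.52, adjusted p = 0.675). For Higd1a and Vhl all 6 AnnexinV-positive libraries were above the double-negative median, and for Bnip3l none was. Car9 and Epo, commonly used targets of the hypoxia factor, had no count in any library. The 29 genes of this list below the filter were not tested, and some had wide contrasts in summed counts of either direction. Hif3a had 40 in AnnexinV-positive against 0 in double-negative libraries and Anxa2 56 against 0, while Cited2 had 13 against 45 and Kdm4b 14 against 29.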

How the data were processed

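The 12 sorted bulk libraries were analysed, and 3 further samples with no sort label were not analysed here. The deposited count table is called raw, but 8.84% of its nonzero values, holding 17.1% of all counts, are not whole, so the values were treated as estimated counts and rounded, where the planned design had assumed whole counts. The columns of the other deposited table, named TPM, add up to 764764 to 1835685, and its values were handled as a score in 1 alternative. The tools STAR, Trimmomatic, Seurat 4 and featureCounts and the builds mm10 and GRCm38 are named per the submitters' processing notes. Annotation, strand setting and the origin of the fractions were not given in the sources used here, so reads of overlapping and antisense genes and of near-identical copies are uncertain.

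Genes were filtered with filterByExpr (minimum count 10, minimum total count 15), which left 3800 genes, and tested with edgeR 4.0.16 in R 4.3.3 (TMM scaling, robust quasi-likelihood fit, sort as the sole term, two-sided, Benjamini-Hochberg over all genes tested, threshold 0.05). Library sizes were the summed counts of the tested genes. Standard errors (SE) were derived as log2 fold change over the root of F. Fits within replicates 1 to 3 and 4 to 6 and their interaction used the same genes. The scripts were tested on simulated data. Alternatives included DESeq2 1.42.0 and limma 3.58.1. Within a sort, chi-square per degree of freedom between libraries was 4.44 to 30.1, above sampling noise, so none was taken as a repeat count of another and all were kept. This cannot show that the libraries came from separate samples, since repeat amplifications of the same cells could also differ beyond sampling noise. Intervals and zero-count limits (3 counts) cover counting error only, since no molecular identifiers are mentioned. Gene positions and transcript lengths (the longest protein-coding transcript with a CCDS tag) come from GENCODE M21 on GRCm38, and promoters from RefSeq on GRCm38.p6.

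Every member is named. Values in every library, or lowest, median and highest, are given for members past the filter or with at least 30 counts, and up to 4 tested genes with the smallest p are given for each of 2 further lists. Some genes of the further and marker lists are not reported here. The members and lists were chosen with earlier results of these data known.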

Additional observations from a re-analysis of the deposited data

Results flagged for a closer look

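Among 36 tests for a library standing far from the other 5 of its sort (Dixon's test at its 95% critical value), 2 values stood out, where chance gives about 1 in 20. Pkm in AnnexinV-positive library 6 was at 574 CPM, and the other AnnexinV-positive libraries were at 287 to 379 CPM. Bnip3 in double-negative library 3 was at 123 CPM, from 8 counts in the shallowest library, and the other double-negative libraries were at 32.4 to 54.2 CPM.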

How the results depend on the processing

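Each of the 15 tested members was refitted under 26 alternatives, and 11 of the 390 values passed the adjusted threshold, 8 for Pgam1 and 3 for Gapdh. Pgam1 passed with upper-quartile scaling (adjusted p = 0.0435), total counts without scaling factors (0.0367), no filter (0.0153), a minimum count of 5 (0.0458), DESeq2 (0.0267), limma-voom (0.0342), replicate set as a covariate (0.0431) and without double-negative library 4 (0.00988), and Gapdh with total counts (0.0413), no filter (0.0407) and without double-negative library 4 (0.0391). In these alternatives 11 members kept their sign, among them every enzyme from Aldoa to Ldha, and Slc2a1, Slc16a1, Bnip3 and Hif1a did not. The log2 fold change of Hif1a became -0.026 with DESeq2 size factors, -0.026 with DESeq2 and -0.021 without double-negative libraries 3 and 5, and ran from -0.16 to 0.44 when 1 library was left out. That of Slc2a1 became 0.016 with upper-quartile scaling, 0.16 with total counts, 0.10 with no filter, 0.030 with a minimum count of 5, 0.85 with limma-voom, 0.36 with the replicate block, 0.36 with the replicate set as a covariate and 1.29 with the table named TPM, and ran from -0.37 to 0.40 with 1 library left out. That of Slc16a1 became 0.58 with limma-voom, 0.43 with the replicate block and 0.82 with the table named TPM, and ran from -0.55 to 0.20 with 1 library left out. That of Bnip3 became -0.30 with the table named TPM. The cause of these changes was not tested.

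The count of called genes, 71 of 3800 (15 higher, 56 lower), was 237 with no filter, 185 with DESeq2, 42 with double-negative libraries 1 to 3 left out, 13 with double-negative libraries 3 and 5 left out, 28 with the table named TPM and 46 to 117 with 1 library left out, the lowest without double-negative library 3 and the highest without double-negative library 4. It was 48 within replicates 1 to 3 (5 to 50 with 1 library left out) and 21 within replicates 4 to 6 (1 to 30). The median of the hypoxia members within replicates 1 to 3, -0.52, ran from -0.86 to 0.11 with 1 library left out and was 0.11 without double-negative library 2. The hypoxia median over all libraries, 0.48, ran from 0.10 without AnnexinV-positive library 5 to 0.94 without double-negative libraries 1 to 3, and Bnip3 from 0.05 to 0.80 with 1 library left out. The glycolytic median, 0.70, ran from 0.31 without double-negative libraries 1 to 3 to 1.20, and from 0.53 to 0.85 with 1 library left out. Scaling moved the median over all genes, 0.06, to 0.14 with upper-quartile scaling (42 higher, 55 lower) and 0.28 without scaling factors (52 higher, 32 lower), so about that much of any fold change depends on the scaling. With rRNA counts removed, the median over all genes was 0.04 and none of the tested members passed the adjusted threshold. Haemoglobin genes were already outside every filtered fit, so that alternative says nothing about them.

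Same-numbered libraries of the 2 sorts deviated together with correlations of -0.007 to 0.078, so the numbers were not taken as pairs; 2 of the AnnexinV-positive libraries correlated best with their own number. With the replicate block, 71 genes were called (19 higher, 52 lower), Pgam1 had a log2 fold change of 1.36 (adjusted p = 0.0660) and Gapdh 0.85 (adjusted p = 0.0802). Depth limits the 18 members below the filter and the 2 shallowest double-negative libraries, in which 0 counts allow up to 46.1 and 24.3 CPM.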
